A study of Nothobranchius furzeri with 8 samples.

Results

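The genes tet3 (Nfu_g_1_009247) and dnmt3ab (Nfu_g_1_019101) are 2 of the 23546 genes in the deposited tables, and both were among the 19536 genes with enough counts to be tested. They were picked by identifier because the study lists them as changed between the groups in these same libraries and as predicted miR-29 targets. The difference between the groups is therefore given for them as a description, and where a test's threshold is mentioned for them it is no independent test. Both are written with the symbols of their zebrafish orthologs.

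Brain RNA of turquoise killifish (Nothobranchius furzeri) was sequenced from 4 sponge-29 fish (kif5a::miR-29sponge) and 4 wild-type control fish (MZM-04/10p), all aged 12 weeks. In the sponge-29 line, a transgene driven by the kif5aa promoter, which is active in neurons, makes an eGFP transcript with repeated miR-29 binding sites that bind the microRNA in place of its targets. The sponge-29 fish were the F1 generation, and the founder of each is not given. Neither the level of miR-29 nor that of the transgene was analysed here, and the labels stand unchecked in this respect. Whole brain was used, so RNA of cells without the transgene was measured too, and fewer cells of a type cannot be told apart from less RNA per cell. Counts summed over genes ranged from 18014090 to 21081878 per sponge-29 library and from 21665735 to 24902251 per wild-type library.

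DNA methylation in vertebrates is set by DNMT enzymes, which add a methyl group to cytosine, and is reversed by TET enzymes. Members of the DNMT3 family, to which dnmt3ab and dnmt3b belong, place methyl groups on DNA that did not carry them. TET3 oxidises the methyl group to hydroxymethylcytosine and further products with iron and α-ketoglutarate as cofactors, and base excision repair can then restore the unmethylated base. In the mammalian brain, neurons express DNMT3A and TET3, and hydroxymethylcytosine is abundant there. Transcripts of both families are known targets of miR-29 in mammals.

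The enzyme that removes methylation, tet3, had 154, 117, 147 and 115 CPM (counts scaled to the size of each library) in the sponge-29 fish, against 170.0, 199, 161 and 189 CPM in the wild-type fish. Each sponge-29 fish lay below each wild-type fish, with 7.55 CPM between the nearest fish of the groups. Sponge-29 fish 2 and 4 were clearly lower than fish 1 and 3 of their group. The group mean was 133 ± 19.9 CPM for sponge-29 and 179.9 ± 17.3 CPM for wild-type (SD, n = 4 each). The sponge-29 mean was 25.9% lower, and the fitted log2 fold change (sponge-29 over wild-type) was -0.43 (standard error 0.11).

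The de novo methyltransferase dnmt3ab had 41.6, 35.9, 44.5 and 40.4 CPM in the sponge-29 fish, against 49.9, 45.5, 68.6 and 56.4 CPM in the wild-type fish. The groups did not overlap here either, but the highest sponge-29 fish and the lowest wild-type fish were only 0.965 CPM apart. The mean was 40.6 ± 3.55 CPM for sponge-29 and 55.1 ± 10.1 CPM for wild-type (SD, n = 4 each). It was thus 26.3% lower in sponge-29, and the fitted log2 fold change was -0.44 (standard error 0.13). The coefficient of variation was 8.74% in sponge-29 and 18.3% in wild-type, while for tet3 it was 14.9% in sponge-29 and 9.59% in wild-type.

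The related methyltransferase dnmt3b (Nfu_g_1_001669) had 8.68, 6.32, 10.9 and 7.15 CPM in the sponge-29 fish, against 13.6, 14.4, 10.95 and 9.85 CPM in the wild-type fish. Sponge-29 fish 3 lay above wild-type fish 4, so the groups overlapped. The log2 fold change was -0.56 (standard error 0.19), and dnmt3b did not pass the threshold of edgeR's quasi-likelihood test.

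**Figure D1:**
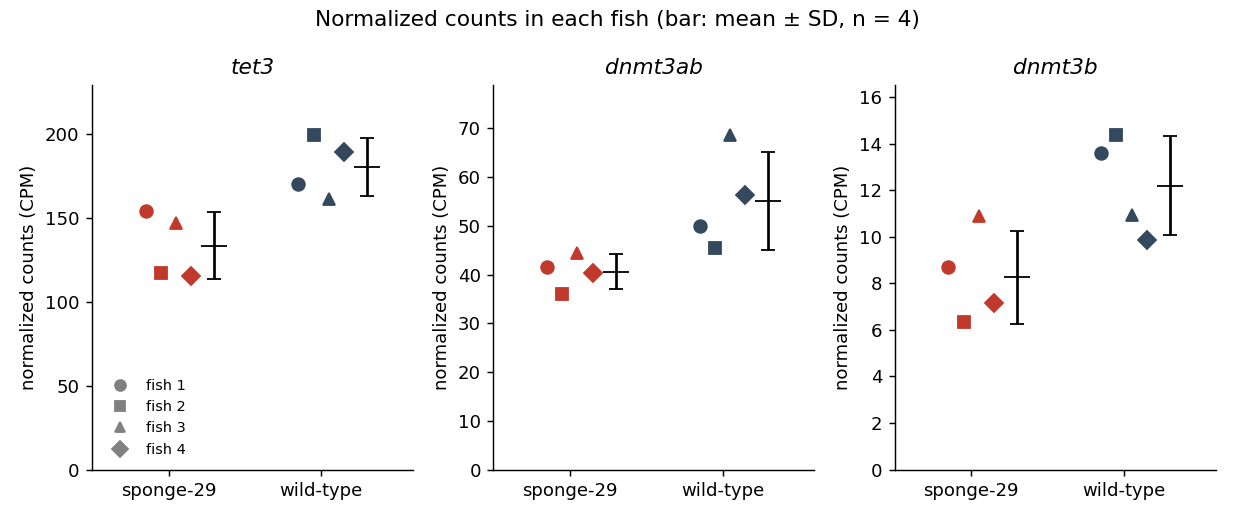
Normalized counts (CPM, linear axis from 0) of tet3, dnmt3ab and dnmt3b in each of the 4 sponge-29 fish (red, left) and 4 wild-type fish (blue, right), with the mean and SD beside the points. Sponge-29 fish are all below wild-type fish for tet3 (115 to 154 against 161 to 199 CPM) and dnmt3ab (35.9 to 44.5 against 45.5 to 68.6 CPM), and the groups overlap for dnmt3b.

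Among all genes tested, 12.0% passed edgeR's quasi-likelihood test at a Benjamini-Hochberg adjusted p of 0.05, with 5.84% lower and 6.15% higher in sponge-29. Groups without overlap, with sponge-29 lower, were found for 10.5% of the genes tested. Of the 2 genes, tet3 passed that threshold and dnmt3ab did not, and nothing is read from this count, since both were listed from the same contrast. By the size of the log2 fold change they were close to each other: 10.3% of the genes tested had a more negative value than tet3 and 10.1% than dnmt3ab. When 1 library was left out in turn, the log2 fold change of tet3 lay between -0.51 (without sponge-29 fish 1) and -0.37 (without sponge-29 fish 4). That of dnmt3ab lay between -0.52 (without wild-type fish 2) and -0.32 (without wild-type fish 3, its highest fish). Of these 8 fits, tet3 passed the threshold in the 2 without sponge-29 fish 1 or 3, and dnmt3ab in the 1 without wild-type fish 2.

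Counting error was small beside the spread between fish for both genes. The lowest library held 2032 counts of tet3, for which counting error alone is 2.22%, and 699 counts of dnmt3ab, for which it is 3.78%. The variation between fish, as a coefficient of variation estimated by edgeR, was 12.6% for tet3, close to the 13.1% of genes of the same abundance. With 123 to 215 counts in sponge-29 and 231 to 345 in wild-type, dnmt3b was measured less precisely.

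Per base of gene length, tet3 and dnmt3ab changed places, and dnmt3b remained the lowest. The length used for the deposited RPKM values (reads scaled to gene length and library size) was 11686 bases for tet3, 2547 bases for dnmt3ab and 3589 bases for dnmt3b. On this scale dnmt3ab had 15.96, 14.03, 17.5 and 15.5 RPKM in the sponge-29 fish, against 19.95, 18.1, 27.2 and 22.1 RPKM in the wild-type fish. The level of tet3 was 12.9, 9.97, 12.6 and 9.65 RPKM in the sponge-29 fish, against 14.8, 17.3, 13.9 and 16.2 RPKM in the wild-type fish. In every fish of both groups, dnmt3ab stood above tet3 and tet3 above dnmt3b.

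The ratio of tet3 to dnmt3ab RPKM was 0.714 ± 0.0752 in sponge-29 and 0.735 ± 0.181 in wild-type (SD, n = 4 each). The sponge-29 fish, from 0.622 to 0.806, lay inside the range of the wild-type fish, from 0.513 to 0.955. The means thus differed by less than the spread between fish, which leaves room for an unequal change of the genes. Both genes were picked from this contrast, and their log2 fold changes were close, with -0.43 for tet3 and -0.44 for dnmt3ab. With the trend with gene length removed, as described below, they were -0.25 for tet3 and -0.45 for dnmt3ab. The level of dnmt3b was the lowest, at 2.275 ± 0.567 RPKM in sponge-29 and 3.44 ± 0.627 RPKM in wild-type. Per length, dnmt3ab exceeded 70.4% to 75.8% of the genes tested in sponge-29 fish and 76.1% to 85.1% in wild-type fish. For tet3 this share was 60.2% to 68.1% in sponge-29 and 69.6% to 74.9% in wild-type, and for dnmt3b it was 20.4% to 29.3% in sponge-29 and 27.9% to 34.0% in wild-type.

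**Figure D2:**
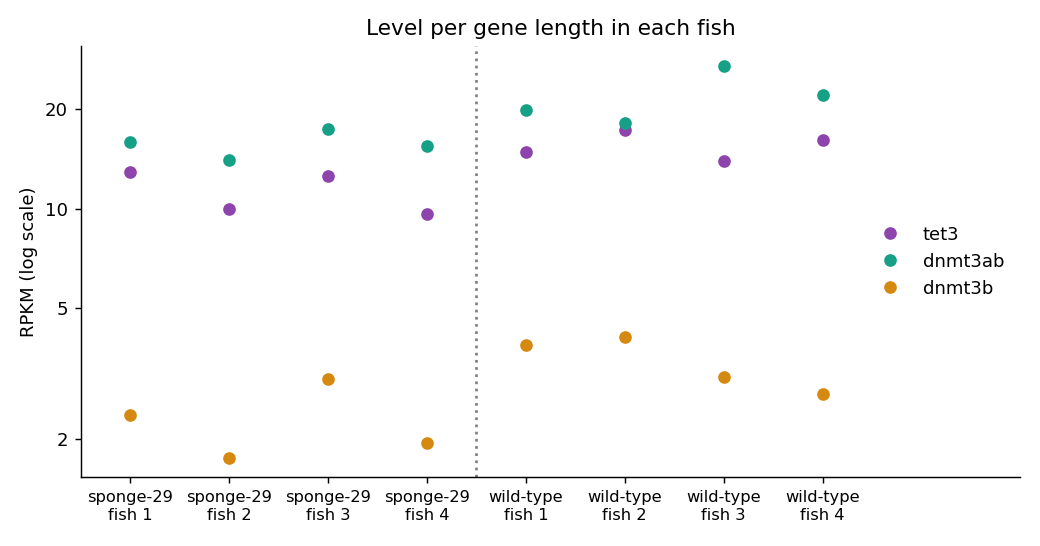
Levels per gene length (RPKM, log axis) of tet3, dnmt3ab and dnmt3b in each sponge-29 fish (left of the dotted line) and each wild-type fish (right). The order dnmt3ab, tet3, dnmt3b holds in all 8 fish, and the nearest approach of tet3 and dnmt3ab is in wild-type fish 2 (17.3 and 18.1 RPKM).

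The genes differed in how their values moved with gene length. The 19536 genes tested were divided by length into 10 classes of nearly equal size. The median log2 fold change was 0.10 in the shortest class and -0.17 in the longest, where 19.2% of the genes were called lower in sponge-29. With 11686 bases, tet3 was longer than 98.6% of the genes tested and belonged to the longest class. It was 0.26 below the median log2 fold change of that class, and 12.5% of its 1954 genes had a more negative value. The length of dnmt3ab was close to the middle, in a class whose log2 fold changes had a median of 0.04, and it was 0.48 below that median.

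When the trend with gene length was removed from each library, the log2 fold change of tet3 was -0.25 (standard error 0.09), against -0.43 without this step. That of dnmt3ab was -0.45 (standard error 0.15) and that of dnmt3b -0.54 (standard error 0.19), both close to the values before. In that fit 7.83% of all genes tested passed the threshold, and neither tet3, dnmt3ab nor dnmt3b was among them. The trend itself differed between the groups without overlap, as given below. Its removal therefore also takes away any difference of long genes that belongs to the genotype. The trend and the genotype cannot be told apart here, and values after removal are not corrected values.

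**Figure D3:**
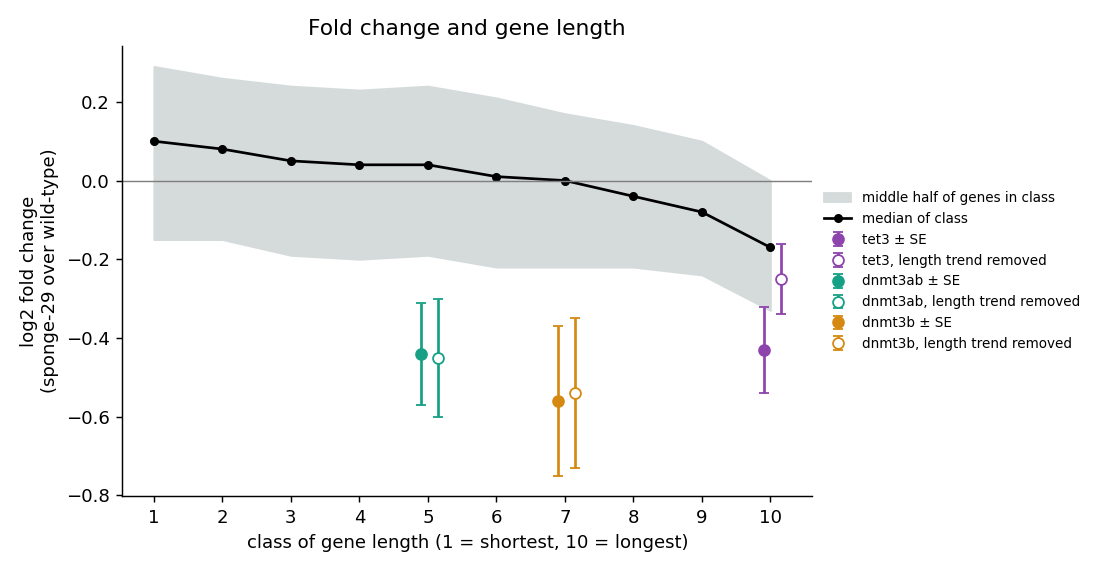
Median log2 fold change (sponge-29 over wild-type) of the genes in each of 10 classes of gene length, with the interquartile range as a grey band, and tet3, dnmt3ab and dnmt3b with their standard errors before (filled) and after (open) removal of the length trend. The medians go down to -0.17 in class 10, where tet3 lies, and tet3 moves most of the 3 genes, with -0.43 before and -0.25 after the removal.

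The length tilt of a library (the median log2 CPM of the longest class minus that of the shortest, relative to the mean of all fish) was -0.06, -0.24, -0.03 and -0.27 in the sponge-29 fish, against 0.11, 0.15, 0.11 and 0.16 in the wild-type fish. Within the groups tet3 followed the tilt by pairs of fish, though not always in order inside a pair. Sponge-29 fish 2 and 4, with the most negative tilt, had the lowest tet3. Wild-type fish 2 and 4, with the most positive tilt, had the highest, although the wild-type tilts spanned only 0.11 to 0.16. Over the deviations of the 8 fish from their group means, Pearson's r between tet3 and the tilt was 0.90 (Spearman's rho 0.86). For dnmt3ab, r was 0.24 (rho 0.45). Both values of a fish come from the same library, and each r is a description.

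**Figure D4:**
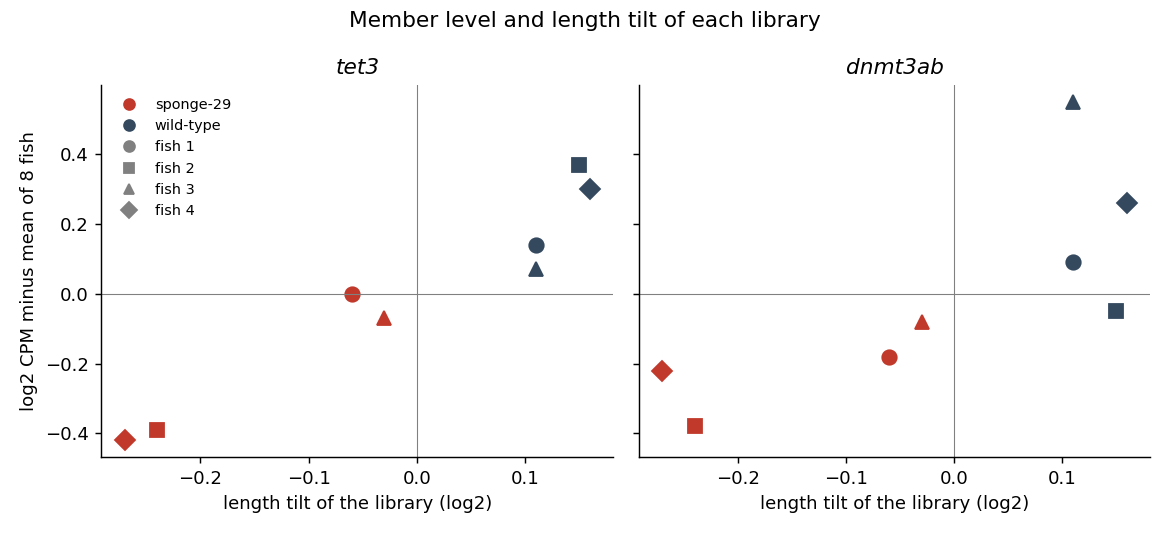
Level of tet3 (left) and dnmt3ab (right) in each fish, as log2 CPM minus the mean of the 8 fish, against the length tilt of the same library (log2, longest minus shortest class); sponge-29 in red and wild-type in blue, symbols mark the fish. For tet3, fish 2 and 4 are lowest in sponge-29 and highest in wild-type, where the tilts span only 0.11 to 0.16. For dnmt3ab, wild-type fish 3, at 0.55, stands highest at a tilt of 0.11.

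How single fish deviated from their group differed between tet3 and dnmt3ab. After subtraction of the group means, Pearson's r of their log2 CPM over the 8 fish was -0.08 (Spearman's rho 0.02). In the sponge-29 group fish 2 was low and fish 3 high for both genes. In the wild-type group the order was opposite at the extremes, as fish 3 had the lowest tet3 (0.15 below the group mean) and the highest dnmt3ab (0.33 above it), and fish 2 the highest tet3 and the lowest dnmt3ab. The deviations of dnmt3b had an r of 0.63 with those of tet3 and of -0.07 with those of dnmt3ab. The values over 8 fish join groups that differed. Among the sponge-29 fish, tet3, dnmt3ab and dnmt3b deviated in the same direction, with dnmt3ab of fish 4 about at its group mean. Among the wild-type fish, dnmt3ab and dnmt3b deviated in opposite directions in every fish. There, tet3 was opposite to dnmt3ab in fish 2 and 3 only, and opposite to dnmt3b in fish 1 and 4. With 4 fish in each, no correlation is given for a single group.

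Across the 8 fish, the genes with a symbol whose log2 CPM was most like that of tet3 included NYAP2 (1 of 2), TBC1D14, ablim1a and vps13d, with Pearson's r from 0.973 to 0.979. Their log2 fold changes ranged from -0.39 to -0.36 and their lengths from 5744 to 8634 bases. The nearest of all was Nfu_g_1_005277, which carries only a clone name, with an r of 0.98 and a log2 fold change of -0.51. The genes most like dnmt3ab were myh10, kif13ba, PSD2, ptpn11b and ppfia2, with r from 0.952 to 0.977 and log2 fold changes from -0.51 to -0.40. No gene was among the nearest 5 of both, and 127 genes of all those tested reached an r of 0.95 with tet3, against 30 with dnmt3ab. Likeness was searched among the 1418 identifiers that have a symbol, nearly all of which the study listed as changed, so that a shared difference between the groups is built into these values. For the deviations from the group means, stmn4l was nearest to tet3 (r of 0.964) although its log2 fold change was 0.42, and ppfia2 was nearest to dnmt3ab (r of 0.981).

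Other genes of DNA methylation, demethylation and the chromatin enzymes tied to them could be followed only where the study pairs an identifier with a symbol, which it does almost only for genes it found changed in these libraries. Together with the other predicted miR-29 targets that the study lists as down-regulated, 36 such genes were tested beside tet3 and dnmt3ab, of which 8 rose, 24 fell and 4 did not pass the same threshold, which 6.15% of all genes tested passed as higher and 5.84% as lower. Predicted targets listed as up-regulated were not added as a list, and any among the 36 genes came in through a function list. The choice of genes thus leans to lower values. Since the genes were listed from this contrast, neither the count nor its direction is independent evidence. The median log2 fold change was -0.44, against -0.01 over all genes tested. With all libraries, 32 were called in either direction. Without 1 sponge-29 fish, the number was 27, 15, 29 and 21 for fish 1 to 4 in turn. Without 1 wild-type fish, it was 20, 30, 21 and 15 for fish 1 to 4 in turn.

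Transcripts of the methyl-CpG-binding domain family, of proteins with a CXXC domain and of the NuRD complex were followed next. Of the 5 genes with a methyl-CpG-binding or related domain, mbd1, MBD5, mbd6 and baz2a fell and mbd3b rose in sponge-29. The level of mbd1, a reader of methylated CpG, was 17.6 to 19.8 CPM in sponge-29, against 26.3 to 30.9 in wild-type (log2 fold change -0.61, standard error 0.08). For mbd3b, a part of the NuRD repressor complex, it was 72.3 to 82.1 CPM in sponge-29, against 56.0 to 65.1 in wild-type (log2 fold change 0.34, standard error 0.07). The NuRD genes chd4a (-0.51), the remodelling ATPase, and GATAD2B (-0.40) fell. The 3 genes with a CXXC domain, which binds CpG without methylation and which TET3 carries too in mammals, also fell, with log2 fold changes of -0.46 for mll, -0.43 for KDM2A (1 of 2) and -0.43 for FBXL19. Of these genes, baz2a and mll, with 10671 and 17855 bases, did not pass once the length trend was removed. In the 8 fits without 1 library, mll passed in 1, GATAD2B in 2, baz2a in 3, mbd3b in 4 and mbd6 in 6. The other genes of this paragraph passed in all 8.

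Of 4 genes of demethylation and base excision repair, 3 rose in sponge-29. The gene gadd45g, which like gadd45ba is tied to DNA demethylation and is induced by stress in vertebrates, had 28.1 to 63.0 CPM in sponge-29, against 11.7 to 15.5 in wild-type, a log2 fold change of 1.57 (standard error 0.25). For gadd45ba it was 1.21 (standard error 0.16). The base excision repair polymerase polb rose by a log2 fold change of 0.47 (standard error 0.09), while LIG1, a DNA ligase, had -0.48 (standard error 0.17) and did not pass. Without 1 library, polb passed in 6 of the 8 fits and both gadd45 genes in all 8.

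The 3 enzymes of α-ketoglutarate and hydroxyglutarate that were followed rose in sponge-29. These were IDH2 (log2 fold change 0.38) and idh3g (0.34), which make α-ketoglutarate in mitochondria, and d2hgdh, which oxidises hydroxyglutarate, an inhibitor of TET enzymes, back to α-ketoglutarate. The level of d2hgdh was 53.5 to 57.5 CPM in sponge-29, against 41.4 to 46.1 in wild-type (log2 fold change 0.37, standard error 0.06). After the length trend was removed, its log2 fold change was 0.44, and IDH2 no longer passed. Without 1 library, IDH2 passed in 3 and idh3g in 6 of the 8 fits, and d2hgdh in all 8.

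In the cycle that supplies methyl groups, shmt1, which moves a carbon unit from serine to folate, had 0.970 to 2.89 CPM in sponge-29, against 13.5 to 15.3 in wild-type, a log2 fold change of -2.89 (standard error 0.27). Methionine synthase, MTR, fell by 0.52 on the log2 scale (standard error 0.13), but did not pass with the length trend removed and passed in 2 of the 8 fits without 1 library. The alternative homocysteine methyltransferase bhmt (log2 fold change 0.85, standard error 0.24) and mri1, of methionine salvage (-0.43, standard error 0.13), did not pass.

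Histone demethylases of the dioxygenase class share the iron and α-ketoglutarate chemistry of tet3. Of 6 such genes 5 fell, from -0.49 for kdm6bb to -0.37 for JMJD1C (1 of 2), while kdm5ba rose (0.36). Among those that fell is KDM2A (1 of 2), given above with the CXXC genes. Of the 6, kdm6a and JMJD1C (1 of 2) did not pass with the length trend removed. Each of them passed in 2 of the 8 fits without 1 library, against 6 for kdm4b and 8 for each of the others. Of the histone methyltransferases whose marks are linked to DNA methylation in mammals, ezh2 (-0.86), nsd1a (-0.50) and ehmt1b (-0.39) all fell, and all 3 passed with the length trend removed and in each of the 8 fits without 1 library.

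**Figure D5:**
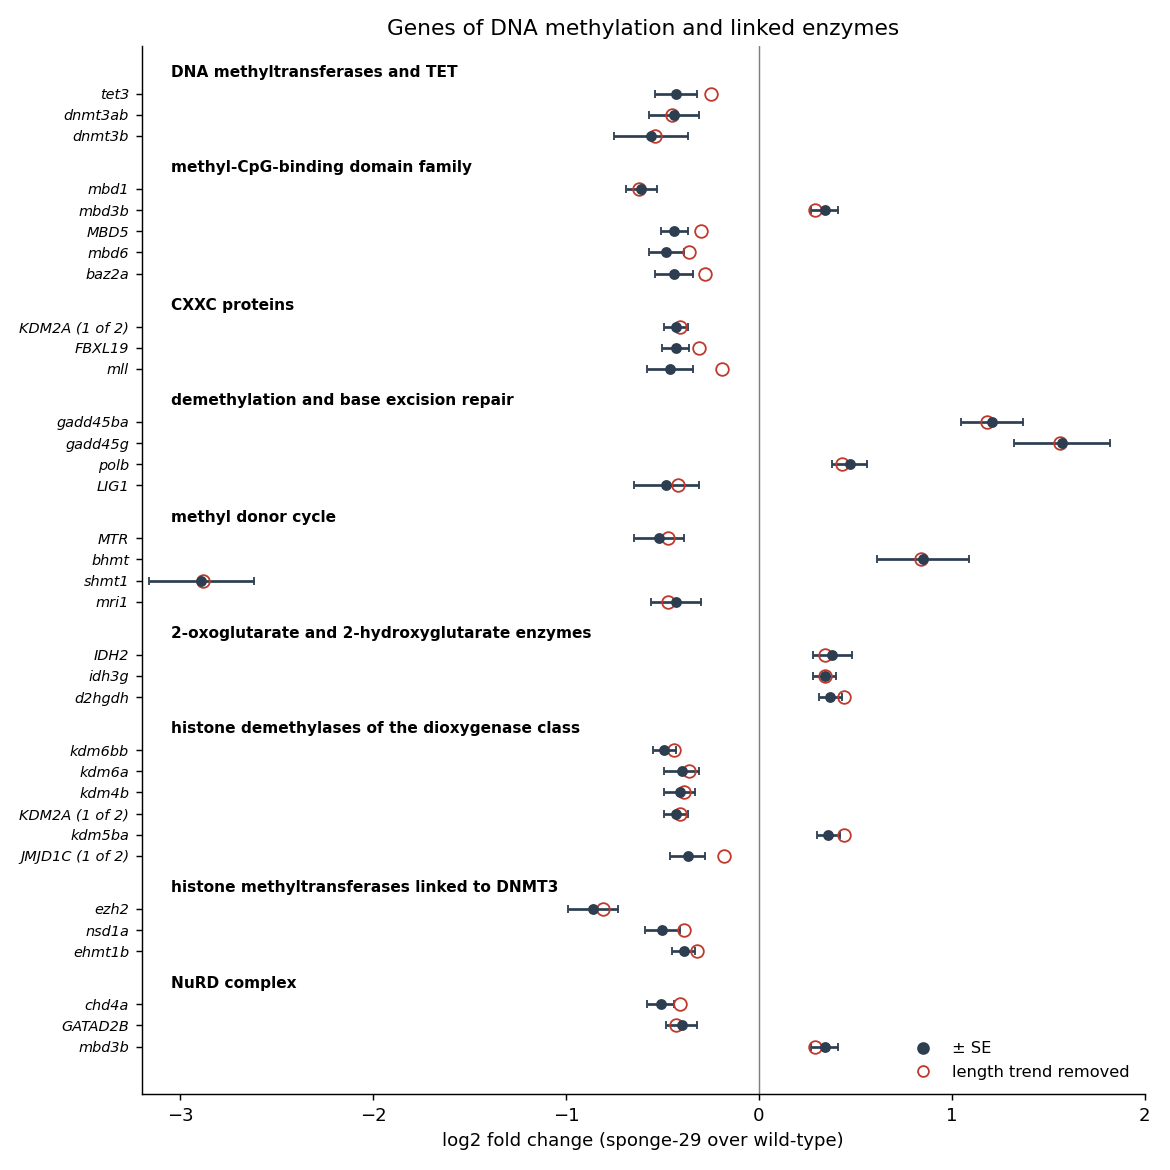
Log2 fold changes (sponge-29 over wild-type) with standard errors of tet3, dnmt3ab, dnmt3b and genes of linked functions, grouped by function (filled points), and the values after removal of the length trend (open circles). The enzymes of α-ketoglutarate and hydroxyglutarate lie between 0.34 and 0.38, right of 0, while tet3, dnmt3ab and dnmt3b lie left of it, between -0.56 and -0.43.

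The 10 predicted miR-29 targets that the study lists as down-regulated include tet3, dnmt3ab and dnmt3b. Their log2 fold changes lay between -0.66 and -0.43, so that tet3 was at the small end, beside XKR7 (2 of 2), also at -0.43. With the length trend removed, the median of the list was -0.46, and tet3, with -0.25, lay nearest to 0 of the 10.

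Markers of cell types differed between the groups too, and their part in the values of tet3 and dnmt3ab was not tested. The summed level of 7 genes of dividing cells was 61.5 to 110 CPM in sponge-29, against 163 to 236 in wild-type, and 6 of the 7 were called lower. The summed level of 6 neuronal genes was 1180 to 1370 CPM in sponge-29, against 861 to 1040 in wild-type, and all 6 were called higher. That of 5 identifiers of endothelium and basement membrane was 109 to 146 CPM in sponge-29, against 160 to 223 in wild-type, with 4 called lower. Among these identifiers, col4a1 is also a predicted miR-29 target that the study lists as down-regulated. The astrocyte and radial glia list (3 genes) had 457 to 483 CPM in sponge-29, against 238 to 388 in wild-type. Most of this sum was KCNJ10 (1 of 2), whose mean CPM was 425 for the sponge-29 group and 290 for the wild-type group. KCNJ10 (1 of 2) and sox9a were called higher and slco1c1 lower. That slco1c1 marks these cells in killifish was not checked, and its lower level is not read as a difference among glia. The level of sox10, of the oligodendrocyte lineage, was 45.2 to 57.8 CPM in sponge-29, against 32.8 to 42.0 in wild-type, and it was called higher. The pair listed for microglia and macrophages overlapped, with 26.4 to 37.6 CPM in sponge-29, against 22.5 to 103 in wild-type. Of the pair, mrc1a was called higher, while ITGAM went the other way (log2 fold change -1.84, standard error 0.77) and was not called. Whether mrc1a marks these cells in killifish was not checked, and its rise is not read as a rise of microglia. The level of ITGAM was 4.95 to 16.2 CPM in sponge-29, against 10.2 to 94.6 in wild-type. Its wild-type mean was 32.5 ± 41.4 CPM (SD), so its fold change leans on the highest wild-type fish. With the length trend removed, 6 genes of dividing cells and 2 identifiers of endothelium were called lower, and 5 neuronal genes higher. In that fit KCNJ10 (1 of 2) did not pass, while sox9a, slco1c1, sox10 and mrc1a did. Without 1 library, the called genes of dividing cells passed in 4 to 8 of the 8 fits. Those of endothelium passed in 1 to 4, the neuronal genes in 1 to 8 and KCNJ10 (1 of 2) in 1. In the same fits sox10 passed in 3, mrc1a in 6, and sox9a and slco1c1 in all 8. No marker, the neuronal genes included, was at 0 in any of the 8 libraries. All had passed the filter on low counts, so their presence is no check of the tissue. These markers, too, have symbols because the study listed them as changed. Of all genes tested, 6.15% were called higher and 5.84% lower, and the numbers of markers called are no independent evidence.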

How the data were processed

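RNA was made into TruSeq libraries and read from a single end. The authors aligned reads to the killifish genome using TopHat2 2.0.6 and obtained counts per gene using featureCounts 1.4.3-p1 (the genome build and the rules on strand and multiple mapping are not given in the sources used here, so reads of overlapping genes or near-identical copies are uncertain). They deposited counts without normalization and RPKM values of the same 23546 genes. The length of a gene was computed from its counts, its RPKM and the summed counts of each library, as the median over libraries.

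Counts were analysed with R 4.3.3 and edgeR 4.0.16: filterByExpr (minimum count 10), TMM scaling, quasi-likelihood F-test of 4 sponge-29 against 4 wild-type fish, and Benjamini-Hochberg adjustment over 19536 genes at a threshold of 0.05. Standard errors were computed from the same fit, as the absolute log2 fold change divided by the square root of the F statistic. CPM use TMM library sizes, and log2 CPM a prior count of 2. The length trend of each library was estimated by a natural spline (4 degrees of freedom) and removed through an offset. The steps were tested on simulated counts. As alternatives, DESeq2 1.42.0, the likelihood ratio test of edgeR, limma 3.58.1 (voom with quality weights, log2(RPKM + 0.1) and log2(RPKM + 1)), RLE and upper quartile scaling, no filter, removal of the length trend, and leaving out each library were run.

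The members and lists were chosen with earlier results of these data known. One gene of the function lists is not reported here and was left out of their counts. Genes named are tet3, dnmt3ab, dnmt3b and genes of 10 lists of functions or predicted targets and of 6 marker lists. Named too are the 5 genes with a symbol most like each of tet3 and dnmt3ab. Likeness was the highest Pearson's r of log2 CPM or of deviations from the group means. LIG1, bhmt and mri1 were named after their values were seen, as the listed genes that did not pass. Symbols are those the study's additional files pair with 1418 identifiers, none of whose fold changes or p-values were used. In the RefSeq gene table, 0 identifiers were found. Fish are numbered in the order of their accessions, and the study describes them as biological replicates.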

Additional observations from a re-analysis of the deposited data

How the results depend on the processing

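The log2 fold changes of tet3, dnmt3ab and dnmt3b stayed negative in all 9 alternative fits and in all 8 fits without 1 library. Over the alternatives they lay between -0.47 and -0.25 for tet3, between -0.48 and -0.43 for dnmt3ab and between -0.59 and -0.44 for dnmt3b, and without 1 library between -0.51 and -0.37, -0.52 and -0.32, and -0.73 and -0.45, in the same order of genes. The threshold was passed by tet3 in 7, by dnmt3ab in 5 and by dnmt3b in 1 of the 9 alternatives; the cause of these differences between tools was not tested. The number of genes called was 3791 with DESeq2 and 1529 with the length trend removed, against 2341, and 427 to 2125 without 1 library. The number of called genes in the function lists and the list of down-regulated predicted targets together, 32, was 24 to 36 over the alternatives. It was 15 to 30 without 1 library. Without gene length, in CPM, the ratio of tet3 to dnmt3ab was 3.28 in sponge-29 and 3.37 in wild-type; without 1 fish, the RPKM ratio was 0.684 to 0.745 in sponge-29 and 0.662 to 0.809 in wild-type. The correlation of their deviations within groups was -0.19 with the length trend removed and -0.06 with RLE scaling. No paired analysis was possible because the labels give the groups no shared replicate numbers. The groups of 4 fish limit what can be said of deviations within groups, and the depth limits dnmt3b most.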
